A study of Mus musculus with 44 samples.

Results

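The genes described here are 36 regulators, targets and enzymes of fatty acid oxidation and of the peroxisome proliferator-activated receptors (PPARs), taken from a list of symbols and found in full among the 29720 genes of the deposited tables. They were read as counts per M library counts (CPM, with M for 10 to the power of 6) in 44 libraries of mouse intestine and as a mean score over all 36. By role they fall into 5 receptors and coregulators, 4 targets with signalling or organelle roles, 5 proteins of fatty acid uptake, binding and storage, 4 proteins of the carnitine shuttle, 11 enzymes of mitochondrial beta-oxidation, 3 of electron transfer, 2 of peroxisomal beta-oxidation and 2 acyl-CoA thioesterases.

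The libraries come from 8 groups in 2 models of inflammatory bowel disease. In the TNFΔARE model, inflamed mice were heterozygous for a Tnf allele that lacks its AU-rich element (Tnf ΔARE/+), the non-inflamed mice were Tnf +/+ littermates, and both were 16 weeks old. In the transfer model every mouse, controls included, was Rag1 null and so had no T or B cells of its own. Inflamed transfer mice had received 400000 naive T cells and developed colitis over 8 to 12 weeks, and non-inflamed transfer mice had received 200000 bulk T cells. Each of these was given ATI-450, which blocks the kinase MK2, at 3 mg/kg or a methylcellulose vehicle, with a second dose 16 h later and tissue taken 90 min after it, while the series text speaks of 24 h. There were 6 inflamed inhibitor, 5 inflamed vehicle, 5 non-inflamed inhibitor and 5 non-inflamed vehicle libraries in the TNFΔARE model, and 6, 6, 6 and 5 in the same order in the transfer model. The labels name mice but tie no library to one animal, so p-values measure the spread between these libraries.

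PPARs are nuclear receptors that bind fatty acids and their derivatives and, paired with RXR, switch on genes for taking up and burning fat. PPARα and its coactivator PGC-1α, the product of Ppargc1a, are best known for driving oxidation in the liver, heart and fasting gut, PPARδ is active throughout the intestinal epithelium, and PPARγ serves fat storage in adipocytes and is also found in colonocytes. Fatty acids enter mitochondria as carnitine esters and are shortened by dehydrogenases, hydratases and thiolases, while peroxisomes shorten very long chains and dicarboxylic acids. Absorptive enterocytes of the small intestine also carry dietary fat, so many of these genes are used there for absorption as well.

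PPAR with RXR binds a pair of AGGTCA sites separated by 1 base, and the windows from 250 bases before to 50 bases after the transcription start in RefSeq (GRCm38.p6) were searched for it on both strands. Windows existed for 31 of the 36 genes. Crat, Acaa2, Decr1, Angptl4 and Vnn1 had none and were not searched. The exact repeat AGGTCANAGGTCA lay in 0.0396% of 32851 windows of all genes and in none of these 31. Allowing any base at the fourth position of each site, AGGNCANAGGNCA matched 0.381% of all windows and 1 of the 34 windows of these genes, that of Fabp1. A single AGGTCA was in 16.3% of all windows and in 11 of the 34 windows of these genes. These windows belong to 10 genes, namely Pparg, Creb3l3, Cd36, Fabp1, Slc27a2, Plin2, Cpt1a, Acadvl, Acadm and Acot12. The windows of 4 genes whose levels are described below are printed 5′ to 3′ on the strand of the gene, with motif matches in capitals. Fabp1 (chr6:71199629-71199928, + strand) holds the repeat on the opposite strand, beginning 67 bases before the start and including an AGGTCA that overlaps it, and a further AGGTCA 9 bases before the start. Slc27a2 (chr2:126552774-126553073, + strand) holds an AGGTCA on the opposite strand 220 bases before the start. Creb3l3 has 2 windows, and the one with a match is shown (chr10:81092542-81092841, - strand), with an AGGTCA 202 bases before the start. The window of Pex11a (chr7:79743082-79743381, - strand) has no match and is shown because this gene was called in both comparisons of TNFΔARE mice with littermates. A match is a string of letters and does not show binding.
Fabp1: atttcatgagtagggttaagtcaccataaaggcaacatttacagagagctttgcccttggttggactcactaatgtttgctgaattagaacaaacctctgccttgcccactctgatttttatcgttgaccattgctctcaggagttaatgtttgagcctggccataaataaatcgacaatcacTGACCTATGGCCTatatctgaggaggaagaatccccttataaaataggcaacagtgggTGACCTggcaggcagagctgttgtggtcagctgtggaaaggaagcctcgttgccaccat
Slc27a2: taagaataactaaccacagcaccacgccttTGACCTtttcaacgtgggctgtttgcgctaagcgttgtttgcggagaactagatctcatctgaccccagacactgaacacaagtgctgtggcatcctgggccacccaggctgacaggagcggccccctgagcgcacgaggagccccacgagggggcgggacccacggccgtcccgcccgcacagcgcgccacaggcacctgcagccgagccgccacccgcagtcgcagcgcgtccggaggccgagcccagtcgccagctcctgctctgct
Creb3l3: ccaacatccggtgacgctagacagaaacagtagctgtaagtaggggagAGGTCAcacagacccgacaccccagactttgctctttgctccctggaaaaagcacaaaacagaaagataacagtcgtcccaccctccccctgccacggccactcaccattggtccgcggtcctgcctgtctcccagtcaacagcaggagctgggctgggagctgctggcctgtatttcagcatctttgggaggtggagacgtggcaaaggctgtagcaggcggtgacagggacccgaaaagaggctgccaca
Pex11a: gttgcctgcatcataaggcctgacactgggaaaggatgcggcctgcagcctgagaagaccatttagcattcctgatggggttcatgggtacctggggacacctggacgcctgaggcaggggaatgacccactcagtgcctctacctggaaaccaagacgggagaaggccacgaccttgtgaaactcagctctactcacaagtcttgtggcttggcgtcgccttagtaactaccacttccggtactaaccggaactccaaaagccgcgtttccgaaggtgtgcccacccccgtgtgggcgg

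TNFΔARE-model libraries held 5.80 to 13.1 M counts (median 10.5), and those of transfer mice 5.95 to 22.3 M (median 17.7). Tissue is given only as intestine per sample, and the models differed by region. The ileal bile acid carrier Fabp6 stood at 1190 to 6638 CPM in all TNFΔARE libraries, and the distal colon gene Hoxb13 at 0.926 CPM or less there, against at least 102 CPM in 22 of the 23 transfer libraries. The exception, inflamed vehicle replicate 3 of the transfer model, had 0.0767 CPM of Hoxb13 and a summed 60170 CPM of 15 small intestinal enterocyte markers, against 220 to 2409 CPM in the other 5 libraries of its group. Pancreatic acinar markers summed to 1000 CPM or more in 3 inflamed inhibitor libraries of the transfer model (replicates 3, 5 and 6) and in inflamed vehicle replicate 1. The colonic gene Car1 reached 100 CPM or more in 5 TNFΔARE libraries, all from inflamed mice (2 with inhibitor, 3 with vehicle). The pan-epithelial marker Epcam was listed at 0 in 41 of 44 libraries of epithelium-bearing tissue, so a low value in these tables can be a failed estimate. Among the members, Eci1 was at 0 in 16 libraries across both models. Fabp1 was at 0 in 12, Acot12 in 11 and Acaa1b in 4, all of the transfer model. Etfb never exceeded 86 counts, and 49.9% of its 31-base words also occur in transcripts of other genes, as do 40.0% for Acaa1b (all with Acaa1a) and 37.3% for Acot2. Values of these genes are uncertain.

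The mean score, the average log2 CPM over the 36 genes, was lower in inflamed than in non-inflamed TNFΔARE-model ileum, with no overlap under the inhibitor. It averaged 5.29 ± 0.27 in inflamed mice given inhibitor (SD, n = 6) and 5.97 ± 0.23 in wild-type littermates given inhibitor (SD, n = 5). With vehicle it averaged 5.39 ± 0.27 in inflamed mice and 5.92 ± 0.25 in littermates (SD, n = 5 each). The vehicle ranges, 5.05 to 5.75 in inflamed mice and 5.66 to 6.26 in littermates, met over a narrow stretch. The inhibitor ranges, 4.96 to 5.60 and 5.65 to 6.28, nearly met. The score is not adjusted for batch, and 5 of the 6 inflamed inhibitor libraries are from batch 3 and all 5 littermates from batch 2. It also includes Eci1, which was at 0 in some inhibitor libraries of both groups. In the transfer model the score averaged 4.50 ± 0.15 in inflamed and 4.86 ± 0.35 in non-inflamed mice given inhibitor (SD, n = 6 each). With vehicle it averaged 4.72 ± 0.83 in inflamed mice (SD, n = 6) and 4.77 ± 0.17 in non-inflamed mice (SD, n = 5). Replicate 3 alone scored 6.34 in that inflamed group, and without it the other 5 libraries averaged 4.40 ± 0.28 (SD, n = 5). All transfer libraries but that one scored below every non-inflamed library of the TNFΔARE model, a difference in which region, host genotype and most of the batches cannot be told apart. Levels of the 2 models were scaled separately, and a joint scaling moved the log2 values by 0.08 in the TNFΔARE and -0.07 in the transfer model.

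**Figure D1:**
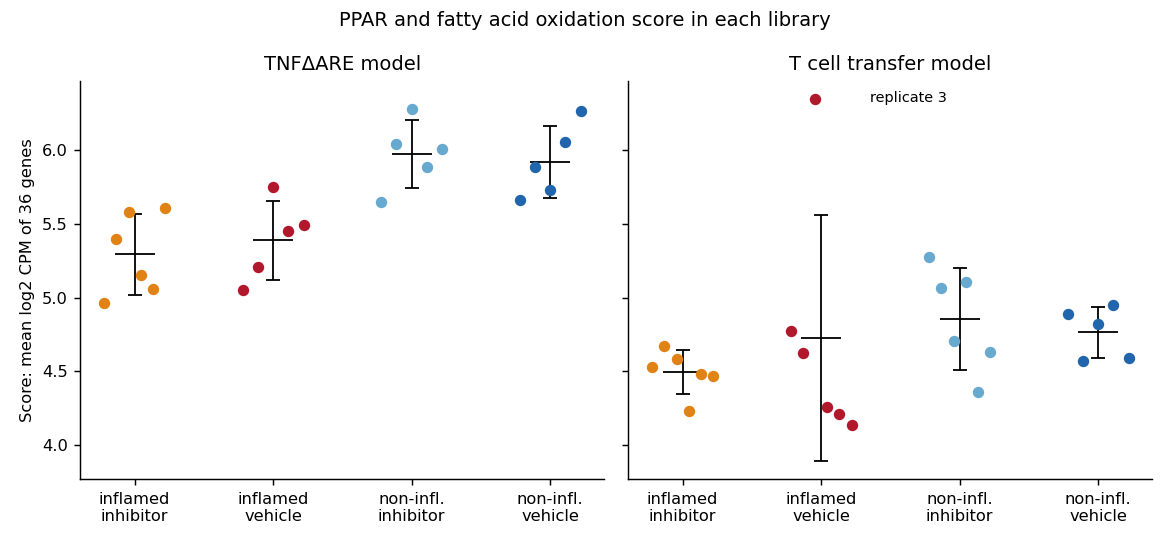
Mean log2 CPM over the 36 genes in each library (points) with the group mean and SD, with the TNFΔARE model on the left and the transfer model on the right. Inflamed TNFΔARE libraries lie between 4.96 and 5.75 and wild-type littermates between 5.65 and 6.28, and 1 inflamed vehicle library of the transfer model stands at 6.34.

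In TNFΔARE mice given vehicle, 9 of the 36 genes fell and 0 rose relative to wild-type littermates given vehicle. Those that fell were the regulators Ppara and Ppargc1a, the lipase inhibitor Angptl4, the peroxisome factor Pex11a, the fatty acid transporter Slc27a4, carnitine acetyltransferase Crat, the thiolases Acaa2 and Acaa1b, and the peroxisomal bifunctional enzyme Ehhadh. Calls are by edgeR's quasi-likelihood test at an adjusted p under 0.05 over 14370 genes, of which 6.94% were called lower and 8.07% higher. Without the p adjustment, 17 members were lower and 1 was higher at a p under 0.05, as were 13.6% and 13.1% of all genes. Of the 36 fold changes 33 were negative, with a median of -0.43 on the log2 scale, beside 52.0% negative and a median of -0.02 over all genes tested. In whole tissue, fewer cells of a type and less RNA per cell cannot be told apart.

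Among the receptors and coregulators, Ppara and Ppargc1a fell and the other 3 did not pass. Ppargc1a, which encodes the coactivator of mitochondrial biogenesis and oxidation, stood at 10.8, 9.16, 12.8, 16.2 and 21.2 CPM in TNFΔARE mice, against 25.9, 50.4, 31.3, 18.8 and 40.7 CPM in littermates. Only the highest inflamed library reached the range of the littermates, and the log2 fold change was -1.38 ± 0.32 (SE, adjusted p = 0.00463). Ppara, the receptor most tied to fasting and fat oxidation, stood at 12.9, 4.47, 7.05, 6.76 and 18.6 CPM in TNFΔARE mice and 19.2, 15.8, 20.6, 11.4 and 33.7 CPM in littermates. The groups overlapped through 2 inflamed libraries, with a log2 fold change of -1.22 ± 0.33 (SE, adjusted p = 0.0163). Ppard, the receptor active across the gut epithelium, stood at 105, 72.9, 88.5, 98.0 and 118 CPM against 150, 170, 169, 74.2 and 144 CPM in littermates. A single low littermate library kept its groups overlapping, and its log2 difference of -0.60 ± 0.21 did not pass (SE, adjusted p = 0.069). Pparg, the adipogenic receptor, stood at 13.6, 20.1, 14.7, 3.85 and 13.3 CPM against 6.72, 10.02, 8.03, 3.56 and 4.48 CPM, so that 4 of 5 inflamed libraries lay above all littermates. Its log2 difference of 1.08 ± 0.48 did not pass (SE, adjusted p = 0.147). Creb3l3, a membrane-bound factor of liver and gut that works with PPARα, ranged from 103 to 258 CPM and from 84.8 to 356 CPM in littermates, with a log2 difference of -0.11 ± 0.39 (SE, adjusted p = 0.92).

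Angptl4 had the largest called change of the 36. It encodes a secreted inhibitor of lipoprotein lipase and is a classical target of all PPARs. It stood at 12.3, 6.43, 15.9, 11.7 and 26.3 CPM in TNFΔARE mice, against 42.8, 52.3, 74.6, 103 and 137 CPM in littermates. Every inflamed library lay below every littermate, and the log2 fold change was -2.66 ± 0.39 (SE, adjusted p = 0.000109). Pex11a, which promotes the division of peroxisomes, stood at 14.3, 15.8, 23.8, 20.8 and 19.9 CPM in TNFΔARE mice and 33.1, 31.6, 31.1, 50.4 and 32.6 CPM in littermates. These groups did not overlap either, and the littermates were close together apart from 1 higher library. The log2 fold change of Pex11a was -0.96 ± 0.19 (SE, adjusted p = 0.0013). Vnn1, a pantetheinase of the gut brush border and a PPARα target, stood at 105, 104, 157, 217 and 140 CPM against 156, 162, 195, 388 and 242 CPM in littermates and did not pass (log2 difference -0.69 ± 0.28, SE, adjusted p = 0.119). Pdk4, the kinase that shuts off pyruvate dehydrogenase when fat is burned, ranged from 2.94 to 13.6 CPM and from 2.93 to 11.1 CPM in littermates and did not pass (log2 difference -0.43 ± 0.43, SE, adjusted p = 0.62).

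Of the proteins that bring in, bind and store fatty acids, only Slc27a4 passed. Slc27a4, also called FATP4, is the fatty acid transport protein of small intestinal enterocytes, and it stood at 304, 341, 613, 454 and 349 CPM in TNFΔARE mice, against 544, 743, 1031, 1028 and 1158 CPM in littermates. The lowest littermate lay below the highest inflamed library and all others were apart, with a log2 fold change of -1.13 ± 0.23 (SE, adjusted p = 0.00204). Fabp1, the liver-type fatty acid binding protein, whose window holds the relaxed repeat, stood at 11.6, 12.0, 40.5, 53.1 and 18.4 CPM and at 17.9, 34.9, 55.5, 100 and 165 CPM in littermates. The groups overlapped widely and the log2 difference of -1.49 ± 0.67 did not pass (SE, adjusted p = 0.158). Cd36, a scavenger receptor that takes up long-chain fatty acids, ranged from 0.583 to 23.5 CPM and from 11.8 to 43.2 CPM in littermates and did not pass (log2 difference -1.18 ± 0.70, SE, adjusted p = 0.31). Plin2, the coat protein of lipid droplets, ranged from 73.3 to 108 CPM and from 63.2 to 83.6 CPM in littermates, with a log2 difference of 0.20 ± 0.12 (SE, adjusted p = 0.32). Slc27a2, a very long chain acyl-CoA synthetase and transporter, had a log2 difference of -0.02 ± 0.23 (SE, adjusted p = 0.98).

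Along the oxidation pathway itself the changes were smaller and mostly did not pass. In the carnitine shuttle, Crat, which moves acetyl groups onto carnitine, stood at 49.4, 40.2, 41.0, 50.03 and 58.8 CPM in TNFΔARE mice and 62.7, 114, 79.3, 49.6 and 93.9 CPM in littermates. The 2 groups overlapped through 1 low littermate, with a log2 fold change of -0.82 ± 0.23 (SE, adjusted p = 0.0183). Cpt1a, the gatekeeper that forms acyl-carnitines, stood at 161, 94.2, 108, 114 and 195 CPM against 213, 179, 157, 59.7 and 164 CPM and did not pass (log2 difference -0.30 ± 0.27, SE, adjusted p = 0.57). The ranges of Cpt1a overlapped fully, since the littermates held both the highest and the lowest library. All 11 enzymes of mitochondrial beta-oxidation had negative fold changes, and 1 passed. Acaa2, the mitochondrial thiolase of the last step, stood at 49.2, 46.0, 69.2, 86.0 and 77.8 CPM against 103, 95.01, 78.6, 101 and 119 CPM, with 1 inflamed library inside the range of the littermates and a log2 fold change of -0.66 ± 0.17 (SE, adjusted p = 0.0132). Hadha, the subunit of the trifunctional protein that hydrates and oxidises long chains, stood at 227, 221, 247, 253 and 256 CPM against 282, 261, 296, 280 and 328 CPM. Its groups did not overlap, yet the log2 difference of -0.29 ± 0.11 did not pass (SE, adjusted p = 0.0944).

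Both peroxisomal enzymes fell, Acaa1b by a call that most fits with 1 library left out did not keep. Ehhadh, which oxidises dicarboxylic and long chains in the peroxisome and is a PPARα target in liver, stood at 56.7, 50.1, 74.4, 63.4 and 70.7 CPM in TNFΔARE mice, against 72.9, 99.8, 103, 128 and 142 CPM in littermates. The ranges met at 1 library of each group, with a log2 fold change of -0.83 ± 0.16 (SE, adjusted p = 0.00118). Acaa1b, a peroxisomal thiolase, stood at 1.94, 0.763, 1.68, 0.816 and 2.68 CPM against 2.46, 6.54, 4.85, 2.51 and 9.06 CPM, with 1 inflamed library inside the range of the littermates. Its log2 fold change was -2.03 ± 0.67 (SE, adjusted p = 0.0482), at a low level and with sequence shared with Acaa1a, and the call was kept in 2 of 10 fits that left out 1 library (highest adjusted p 0.129). None of the 3 electron transfer genes and neither thioesterase passed, and the smallest p among them had log2 differences of -0.77 for Etfb (adjusted p = 0.557) and -1.17 for Acot12 (adjusted p = 0.167). In batch 2 alone, which holds 4 of 5 TNFΔARE and all 5 littermate vehicle libraries, 6 members were called lower (Ppara, Ppargc1a, Angptl4, Pex11a, Slc27a4 and Ehhadh), where 3.82% of all genes were. Without the 3 inflamed vehicle libraries that hold Car1 and the 2 with inhibitor, 5 were called lower (Ppara, Angptl4, Pex11a, Slc27a4 and Ehhadh), where 1.67% of all genes were. Leaving out TNFΔARE vehicle replicate 2 left 5 lower (Ppargc1a, Angptl4, Pex11a, Slc27a4 and Ehhadh), where 4.76% of all genes were.

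**Figure D2:**
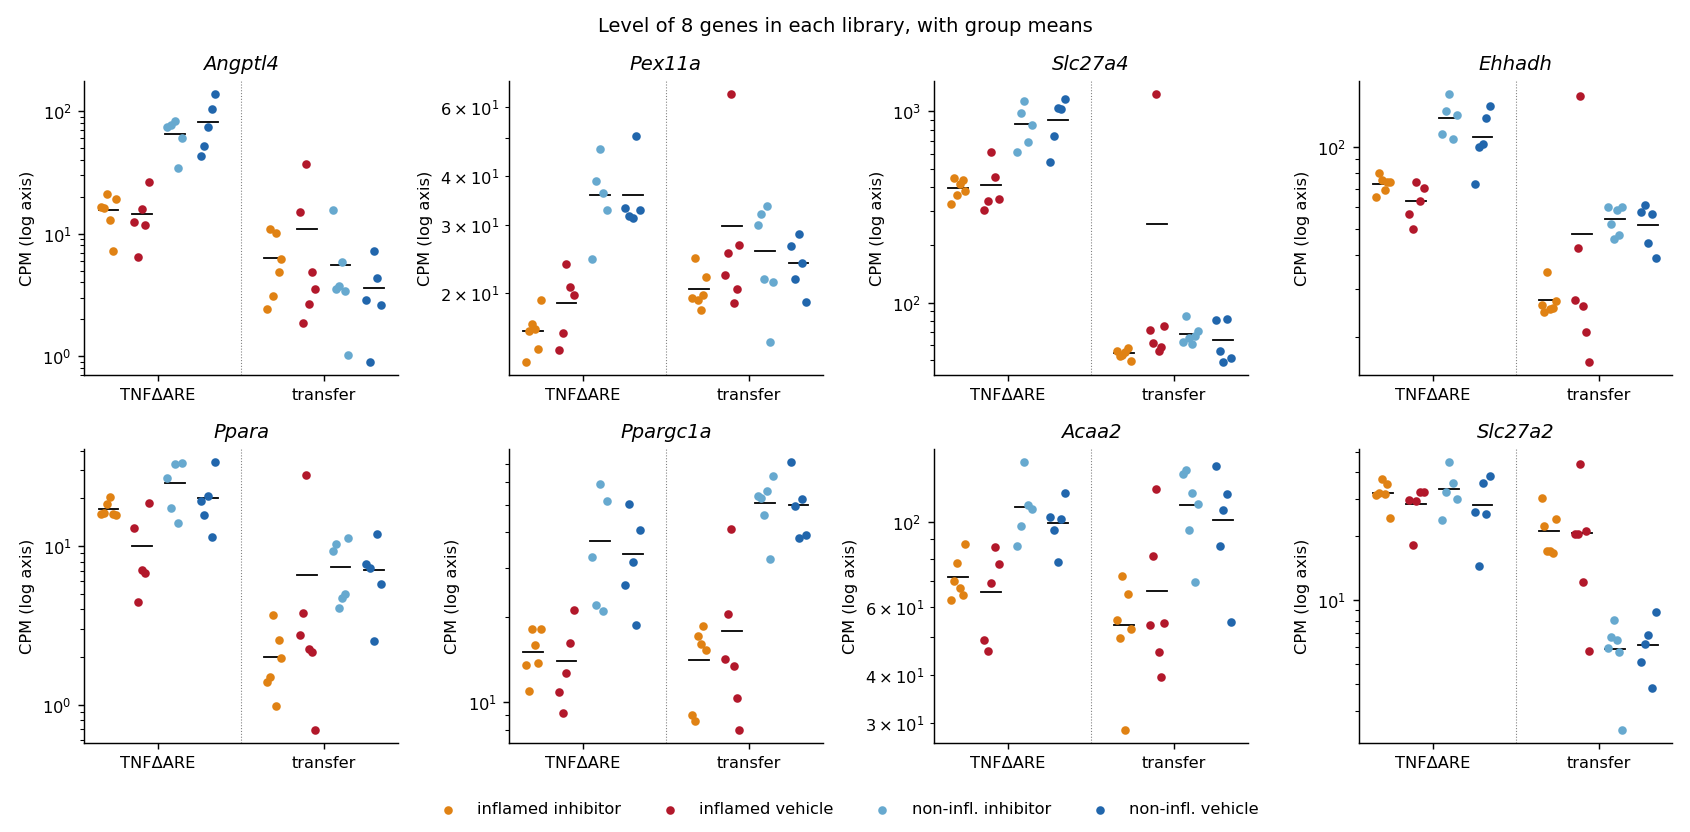
CPM on a log axis of 8 of the genes in every library (points) with group means, by model and group. Angptl4 and Pex11a of inflamed TNFΔARE mice lie below every wild-type littermate of the same treatment, and Slc27a4 shows 1 inflamed transfer library at 1221 CPM among libraries of 49.0 to 84.7 CPM.

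Markers of the absorptive epithelium moved with these genes. Of 15 small intestinal enterocyte markers 12 were called lower in TNFΔARE mice with vehicle, and their summed level was 13920 to 24570 CPM, against 25810 to 47870 CPM in littermates. With the inhibitor 10 of 15 were lower, at 12100 to 17640 CPM in TNFΔARE mice and 29690 to 53880 CPM in littermates. The pan-epithelial markers overlapped with vehicle, at 15330 to 25190 CPM in TNFΔARE mice and 16110 to 29250 CPM in littermates, and with inhibitor stood at 15090 to 18510 CPM against 19670 to 24860 CPM. Of 10 macrophage markers 9 were higher in TNFΔARE mice with vehicle, at a sum of 1760 to 4122 CPM against 204 to 470 CPM. Adipocyte markers summed to 89.5 to 374 CPM in TNFΔARE mice and 197 to 1488 CPM in littermates with vehicle, with 2 of 10 called lower. The part of these cell types in the changes of the 36 genes was not tested.

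**Figure D3:**
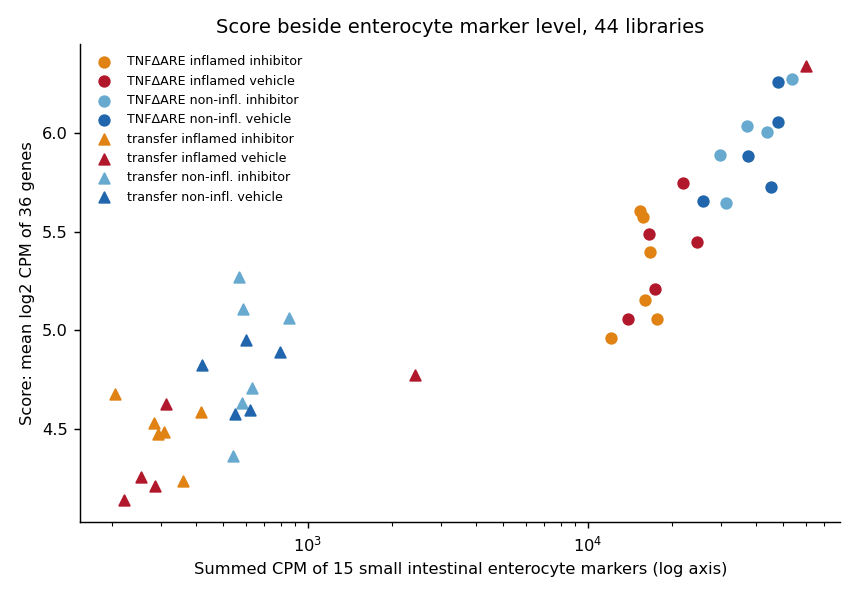
Mean log2 CPM over the 36 genes against the summed CPM of 15 small intestinal enterocyte markers (log axis) in each library, with the groups by colour and marker. Inflamed TNFΔARE libraries hold 12100 to 24570 CPM of these markers and wild-type littermates 25810 to 53880 CPM, and the transfer library with 60170 CPM is the one with a score of 6.34.

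The same contrast was made among mice given the inhibitor. It shared no library with the vehicle comparison, but both came from 1 fit with common batch terms and spread, so they are not independent. Here 10 members fell and 0 rose in TNFΔARE mice relative to littermates, where 4.37% of all genes were called lower and 7.23% higher, and 20 members were lower and 0 higher at an unadjusted p under 0.05, as were 10.1% and 13.2% of all genes. The fold changes were negative for 35 of 36 genes, with a median of -0.59, beside 50.8% negative and a median of -0.01 over all genes. Of the 10 called lower, 7 had also been called lower with vehicle (70.0% of this list and 77.8% of the vehicle list of 9): Ppargc1a, Angptl4, Pex11a, Slc27a4, Acaa2, Ehhadh and Acaa1b. The same overlap over all genes was not computed, so it is not known whether these shares are particular to the members. Ppard, Cpt2 and Hadha passed only here, which does not show that they differ between treatments, and Ppara and Crat did not pass here.

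Angptl4 had a lowest, median and highest level of 7.20, 16.3 and 21.2 CPM in TNFΔARE mice given inhibitor, against 74.2, 77.0, 82.7, 34.2 and 59.9 CPM in littermates given inhibitor. Every inflamed library lay below every littermate, with a log2 fold change of -2.49 ± 0.47 (SE, adjusted p = 0.00177). For Pex11a the inflamed values were 13.3, 16.1 and 19.2 CPM (lowest, median and highest), against 24.4, 38.8, 46.9, 36.1 and 32.6 CPM. These did not overlap, with a log2 fold change of -1.33 ± 0.26 (SE, adjusted p = 0.00236). Ppargc1a had 11.01, 14.9 and 18.1 CPM (lowest, median and highest), against 32.7, 22.03, 59.4, 20.98 and 51.4 CPM, again without overlap (log2 fold change -1.71 ± 0.41, SE, adjusted p = 0.00977). Ehhadh had 65.6, 74.2 and 80.3 CPM, against 112, 135, 156, 107 and 131 CPM, without overlap (log2 fold change -0.97 ± 0.22, SE, adjusted p = 0.0058). Slc27a4 had 326, 399 and 446 CPM, against 613, 979, 1132, 690 and 849 CPM, without overlap (log2 fold change -1.13 ± 0.34, SE, adjusted p = 0.0346). Ppard, which had missed the threshold with vehicle, had 86.1, 97.3 and 110 CPM, against 220, 133, 150, 115 and 214 CPM. Every inflamed library lay below every littermate, with a log2 fold change of -0.94 ± 0.29 (SE, adjusted p = 0.04). Smaller changes were called for Acaa2 (-0.83 ± 0.24, adjusted p = 0.0268), Cpt2, the inner carnitine palmitoyltransferase (-0.58 ± 0.18, adjusted p = 0.045), and Hadha (-0.49 ± 0.16, adjusted p = 0.0485), each as log2 fold change ± SE and each with overlapping libraries. With 1 library left out, the call of Ppard was kept in 5 of 11 fits, that of Cpt2 in 3 and that of Hadha in 2. Acaa1b, at 0.48 to 7.25 CPM against 2.61 to 18.3 CPM, was called at -3.40 ± 1.01 (SE, adjusted p = 0.0344).

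This comparison leans on few libraries that share a batch. Of 6 inflamed inhibitor libraries 5 are from batch 3, and all 5 littermates are from batch 2. Without the 1 inflamed library of batch 2 (replicate 1), Angptl4 was the 1 member still called, where 0.682% of all genes were called lower. Without the libraries that hold Car1, Pex11a was the 1 member called, where 0.83% of all genes were. Leaving out littermate replicate 3 or 5 left 5 members in each case, where 3.20% and 3.41% of all genes were called lower.

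**Figure D4:**
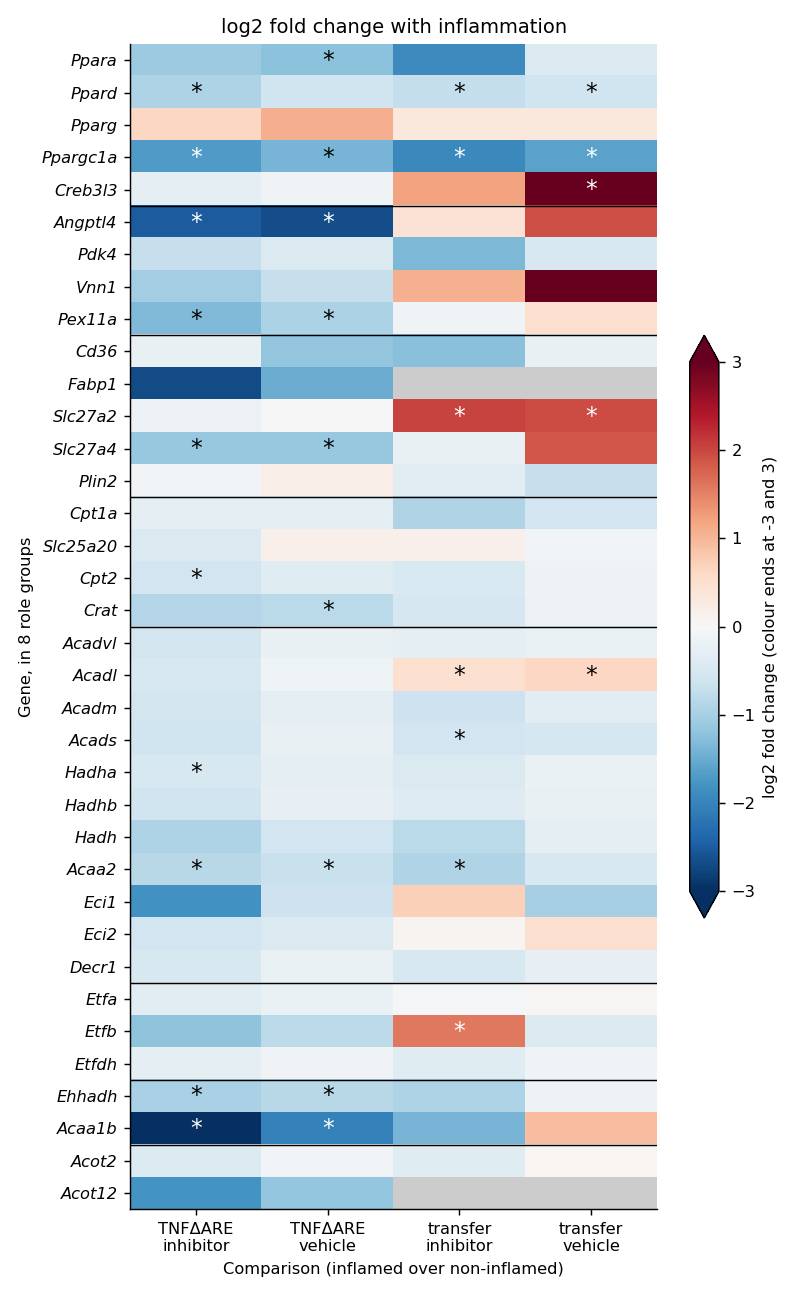
Log2 fold change of each of the 36 genes, ordered by role, in inflamed over non-inflamed mice (columns: TNFΔARE model with inhibitor and with vehicle, transfer model with inhibitor and with vehicle), with a star where the adjusted p is under 0.05 and grey where a gene was not tested. The TNFΔARE columns are negative (blue) for 35 and 33 of 36 genes with 10 and 9 stars, and Ppargc1a has a star in all 4 columns.

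In the transfer model given vehicle, colitic mice showed 3 members higher and 2 lower than non-inflamed mice, of 34 members tested among 15317 genes (Fabp1 and Acot12 had too few counts). Of all genes, 6.95% were called higher and 5.34% lower. Slc27a2, Creb3l3 and Acadl rose, and Ppard and Ppargc1a fell. The 34 fold changes were negative for 22 genes with a median of -0.18, beside 46.6% and 0.05 over all genes. The small-intestinal-type library of the inflamed group bears on several of these calls, so values without it are given beside them. Leaving out colitic replicate 1 or non-inflamed replicate 6 left 2 members called (7.69% and 2.70% of all genes), leaving out non-inflamed replicate 2 left 3 (9.56%), and leaving out colitic replicate 3 gave 9 (18.5%).

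Ppargc1a stood at 14.2, 20.5, 41.0, 13.4, 10.4 and 7.99 CPM in colitic mice (median 13.8), against 70.7, 49.4, 38.0, 52.4 and 39.0 CPM in non-inflamed mice. The inflamed value of 41.0 CPM is replicate 3, and all others lay below the non-inflamed range. The log2 fold change was -1.60 ± 0.38 (SE, adjusted p = 0.012), and without replicate 3 it was -2.02 (adjusted p = 0.000553). Ppard had a lowest, median and highest level of 130, 182 and 197 CPM in colitic mice, against 245, 278, 162, 214 and 273 CPM in non-inflamed mice. The groups overlapped through 1 non-inflamed library, and the log2 fold change was -0.59 ± 0.16 (SE, adjusted p = 0.0198), or -0.62 without replicate 3 (adjusted p = 0.0132). Slc27a2 stood at 20.6, 20.4, 43.8, 12.2, 21.2 and 5.73 CPM in colitic mice (median 20.5), against 5.11, 6.22, 6.86, 3.84 and 8.79 CPM. Of the 6 colitic libraries 5 lay above all non-inflamed ones, with a log2 fold change of 1.96 ± 0.42 (SE, adjusted p = 0.00699), or 1.60 without replicate 3 (adjusted p = 0.00555). Acadl, the long-chain acyl-CoA dehydrogenase, ranged from 276 to 519 CPM (median 360) against 236, 200, 355, 205 and 285 CPM, with overlapping groups and a log2 fold change of 0.62 ± 0.19 (SE, adjusted p = 0.0439). The Acadl call was kept in 5 of 11 fits with 1 library left out, and with inhibitor in 3 of 12.

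Creb3l3 stood at 22.98, 4.05, 451, 7.90, 2.94 and 11.5 CPM in colitic mice, against 6.90, 1.90, 4.93, 4.48 and 2.47 CPM. Its called log2 fold change of 4.37 ± 1.29 (SE, adjusted p = 0.0319) rested on replicate 3, at 451 CPM. Without that library it was 1.43 (adjusted p = 0.13) and no longer passed. In the same library Slc27a4 stood at 1221 CPM against 55.8 to 75.8 CPM in the other 5 of its group, and Vnn1 at 326 CPM against 1.10 to 6.35 CPM. Ppara stood there at 28.1 CPM against 0.695 to 3.81 CPM in the other 5, while non-inflamed mice had 7.73, 7.32, 2.53, 12.0 and 5.76 CPM. With all libraries the log2 difference of Ppara was -0.43 ± 0.75 (SE, adjusted p = 0.73), and without replicate 3 it fell by 1.86 (adjusted p = 0.0129). Without replicate 3, 7 members were called lower and 2 higher, where 9.04% of all genes were called lower and 9.44% higher, and 26 of 34 fold changes were negative with a median of -0.40. The lower 7 were Ppara, Ppard, Ppargc1a, Acadvl, Hadha, Hadh and Ehhadh, and the higher 2 were Slc27a2 and Acadl. Ehhadh, for one, stood at 27.4, 42.4, 26.0, 20.9 and 16.2 CPM in these 5 colitic libraries, against 57.8, 61.3, 44.4, 56.6 and 39.1 CPM, with a log2 fold change of -0.95 ± 0.22 (SE, adjusted p = 0.00732). Its groups then overlapped through 1 colitic library only.

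**Figure D5:**
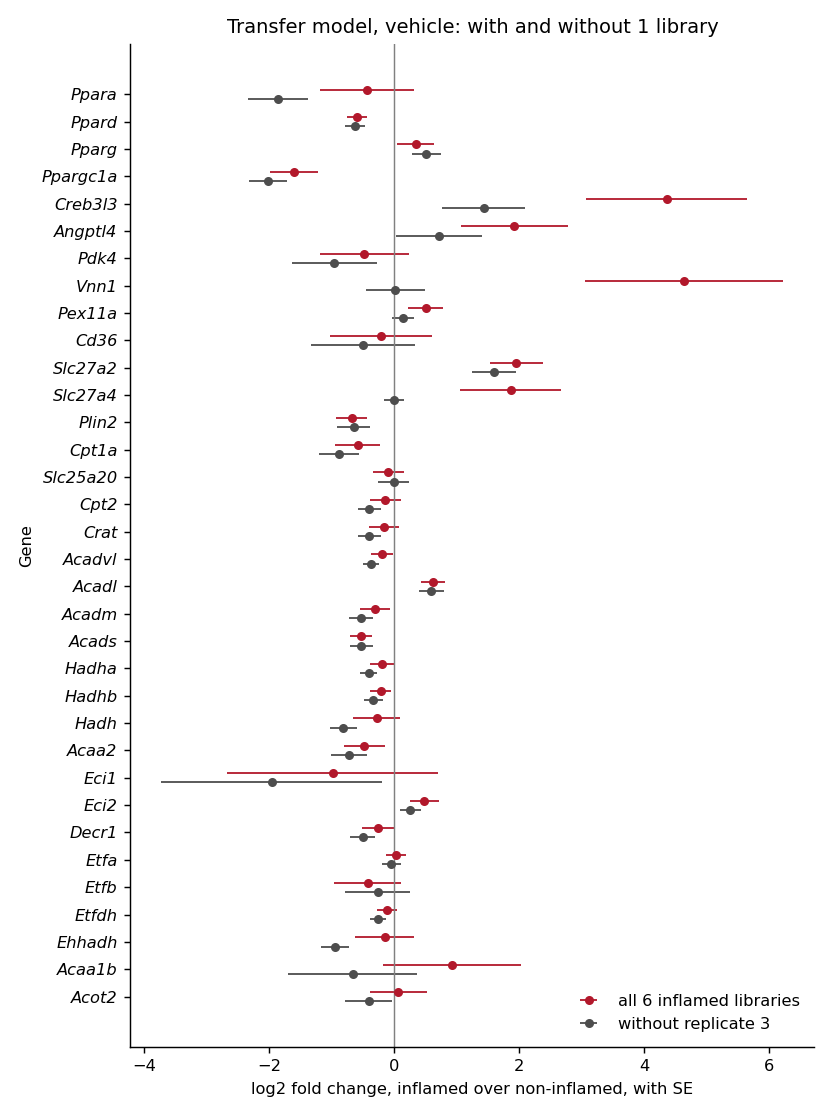
Log2 fold change of each tested gene in colitic against non-inflamed transfer mice given vehicle, with all libraries and without inflamed vehicle replicate 3, with standard errors. Creb3l3 moves to 1.43 and Vnn1 to 0.01 without that library, and Slc27a2 stays at 1.60.

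Other members of the named set did not pass with vehicle in the transfer model. Plin2 stood at 100 to 126 CPM in colitic mice, below all non-inflamed libraries at 131 to 288 CPM, but its log2 difference of -0.68 ± 0.25 had an adjusted p of 0.0803. Pparg had a lowest, median and highest level of 13.4, 43.7 and 51.7 CPM, against 26.6, 26.8, 40.0, 28.7 and 33.5 CPM (log2 difference 0.34 ± 0.30, adjusted p = 0.458). Angptl4 stood at 14.9, 1.85, 37.2, 2.65, 4.87 and 3.53 CPM against 2.88, 0.895, 7.19, 4.38 and 2.62 CPM, so it lay low in both groups except in 2 colitic libraries (log2 difference 1.92 ± 0.86, adjusted p = 0.143). These 2 are replicate 1, rich in pancreatic transcripts, and replicate 3, the small-intestinal-type library. Cpt1a ranged from 72.1 to 342 CPM in colitic and from 169 to 408 CPM in non-inflamed mice (log2 difference -0.58 ± 0.36, adjusted p = 0.289). Batch limits this comparison: 5 of 6 colitic libraries are from batch 4, which holds 2 of the non-inflamed ones, and in batch 4 alone 0 members and 0% of all genes were called. The log2 difference there was -1.29 for Ppargc1a and -0.47 for Ppard. Markers of colonocytes summed to 1908 to 4787 CPM in colitic mice and 5025 to 17080 CPM in non-inflamed mice, with 3 of 10 called lower. Smooth muscle markers summed to 2093 to 3560 CPM in colitic mice and 3127 to 10670 CPM in non-inflamed mice, with 6 of 10 called lower. Macrophage markers summed to 262 to 3956 CPM against 181 to 497 CPM and T cell markers to 56.0 to 285 CPM against 6.204 to 57.6 CPM, with 7 of 10 called higher in each list. The part of these cell types in the result was not tested.

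With the inhibitor, colitic transfer mice had 3 members higher (Slc27a2, Acadl and Etfb) and 4 lower (Ppargc1a, Ppard, Acads and Acaa2) than non-inflamed mice, where 12.9% of all genes were called higher and 9.71% lower. Of 34 fold changes 24 were negative, with a median of -0.38, beside 48.6% and 0.02 over all genes. The vehicle and inhibitor lists shared Slc27a2 and Acadl among the higher (66.7% of each) and Ppard and Ppargc1a among the lower (50% of the inhibitor list and all of the vehicle list). These comparisons too came from 1 fit, and the overlap over all genes was not computed. Slc27a2 had a lowest, median and highest level of 16.6, 19.8 and 30.3 CPM in colitic mice given inhibitor, against 2.44, 6.19 and 8.06 CPM in non-inflamed mice. Every colitic library lay above every non-inflamed one, with a log2 fold change of 2.02 ± 0.37 (SE, adjusted p = 0.000933). Ppargc1a had 8.57, 15.7 and 18.7 CPM, against 32.1, 53.3 and 63.2 CPM (lowest, median and highest), without overlap (log2 fold change -1.92 ± 0.38, SE, adjusted p = 0.00154). It was the 1 gene of the 36 called lower in all 4 comparisons of inflamed with non-inflamed mice. The share of all genes called lower in all 4 was not computed.

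Ppard had 99.6, 147 and 155 CPM in colitic mice, against 181, 211 and 228 CPM in non-inflamed mice, without overlap (log2 fold change -0.71 ± 0.15, SE, adjusted p = 0.00206). Ppara had 0.977, 1.74 and 3.67 CPM, against 4.06, 7.12 and 11.2 CPM, and did not overlap either, but its log2 difference of -1.91 ± 0.76 did not pass (SE, adjusted p = 0.0731). Acads, the short-chain acyl-CoA dehydrogenase, had 76.2, 130 and 174 CPM, against 146, 234 and 270 CPM, with some overlap (log2 fold change -0.58 ± 0.16, SE, adjusted p = 0.0152). Acaa2 had 28.8, 54.0 and 72.3 CPM, against 69.7, 115 and 136 CPM, overlapping at 1 library of each group (log2 fold change -0.90 ± 0.30, SE, adjusted p = 0.0399), a call kept in 5 of 12 fits with 1 library left out. Etfb, the beta subunit of the electron transfer flavoprotein, was called at 1.58 ± 0.46 (SE, adjusted p = 0.0202) from 0.837 to 5.22 CPM against 0.568 to 1.82 CPM, and is one of the uncertain genes above. Without the 4 libraries rich in pancreatic transcripts and the small-intestinal-type one, 16 members were called, with Slc27a2 higher and 15 lower, where 11.9% of all genes were called higher and 9.54% lower. The 15 were Ppara, Ppard, Ppargc1a, Pdk4, Cpt1a, Crat, Acadvl, Acadm, Acads, Hadha, Hadhb, Hadh, Acaa2, Decr1 and Ehhadh. That fit kept 3 colitic inhibitor libraries. The small-intestinal-type library was given vehicle, so it is in neither group compared and enters only through the shared fit. With it kept and the other 4 left out, 1 member was called higher and 4 lower, where 8.71% and 5.84% of all genes were. Colonocyte markers summed to 2236 to 3434 CPM in colitic mice given inhibitor, against 4668 to 10030 CPM in non-inflamed mice. Smooth muscle markers stood at 1937 to 3755 CPM against 3877 to 7954 CPM, with 8 of 10 called lower. Macrophage markers stood at 1514 to 3616 CPM against 167 to 577 CPM, with 8 of 10 called higher, and T cell markers at 146 to 447 CPM against 3.24 to 26.3 CPM, with all 10 higher. The part of these cell types was not tested. Leaving out colitic replicate 2 or 6 left 4 members called (10.7% and 15.2% of all genes), and leaving out colitic replicate 3 gave 11 (23.7%).

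The remaining enzymes of the pathway passed in none of the 4 comparisons of inflamed with non-inflamed mice when all libraries were used. They are Acadvl and Acadm, the very long and medium chain dehydrogenases, Hadhb, the thiolase subunit of the trifunctional protein, Hadh, the short-chain hydroxyacyl-CoA dehydrogenase, Eci1, Eci2 and Decr1, which prepare unsaturated chains, Etfa and Etfdh, which pass electrons to the respiratory chain, the carnitine carrier Slc25a20 and the thioesterase Acot2. Hadh had the largest difference among those with no library at 0, at 313 to 369 CPM in TNFΔARE mice given inhibitor, against 464 to 798 CPM in littermates. These groups did not overlap, but the log2 difference of -0.94 ± 0.34 did not pass (SE, adjusted p = 0.0838). With vehicle Hadh ranged from 263 to 557 CPM in TNFΔARE mice and from 401 to 978 CPM in littermates (log2 difference -0.57 ± 0.23, SE, adjusted p = 0.118). In colitic transfer mice given inhibitor it had 113, 186 and 234 CPM (lowest, median and highest), against 242, 374 and 470 CPM in non-inflamed mice, again without overlap (log2 difference -0.81 ± 0.34, SE, adjusted p = 0.0864). Acadm came closest to the threshold in the same comparison, at 54.8, 83.6 and 98.9 CPM against 85.5, 149 and 170 CPM (log2 difference -0.62 ± 0.22, SE, adjusted p = 0.0511). Acadvl did so in TNFΔARE mice given inhibitor, at 124, 137 and 150 CPM against 167 to 238 CPM in littermates (log2 difference -0.56 ± 0.19, SE, adjusted p = 0.0595). Slc25a20, at the middle of the carnitine shuttle, had log2 differences of 0.15 ± 0.24 in TNFΔARE mice with vehicle and -0.44 ± 0.37 with inhibitor, and of -0.09 ± 0.25 and 0.16 ± 0.23 in colitic transfer mice with vehicle and inhibitor (SE).

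No member was called for the inhibitor itself in any of its 4 comparisons with vehicle by edgeR's test. Batch limits the comparisons in inflamed mice, which lean on few libraries that share a batch. In TNFΔARE mice 5 of 6 inhibitor libraries are from batch 3 and 4 of 5 vehicle libraries from batch 2. In colitic transfer mice 1 of 6 inhibitor and 5 of 6 vehicle libraries are from batch 4. In inflamed transfer mice 0.00653% of all genes were called, which is 1 gene and no member. An unadjusted p under 0.05 was met by 4 members (Creb3l3, Vnn1, Slc27a4 and Etfb), beside 3.05% of all genes. Creb3l3, Vnn1 and Slc27a4 are the genes raised in the small-intestinal-type vehicle library, and Etfb had a log2 difference of 1.48 ± 0.50 (SE, unadjusted p = 0.00773, adjusted p = 0.998). In inflamed TNFΔARE mice 0% of all genes and 0 members were called, and 0 members had an unadjusted p under 0.05, beside 1.33% of all genes. In wild-type littermates the share of all genes called was 0% too, and 2 members had an unadjusted p under 0.05, beside 2.6% of all genes. These were Cd36 with a log2 difference of -1.61 ± 0.70 and Plin2 with 0.26 ± 0.12 (SE, adjusted p = 1 for both). Adipocyte markers summed to 69.5 to 176 CPM in littermates given inhibitor and 197 to 1488 CPM in littermates given vehicle, with 9 of 10 lower at an unadjusted p under 0.05 and 0 called. Their part in the Cd36 value was not tested. In non-inflamed transfer mice 0% of genes were called, and 0 members had an unadjusted p under 0.05, beside 1.19% of all genes. DESeq2 and limma-voom likewise called 0 members in each of the 4.

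The intervals show what differences remain possible. For Angptl4 in inflamed TNFΔARE mice the inhibitor minus vehicle difference was -0.15 on the log2 scale, with a 95% interval of -0.98 to 0.67. For Ppargc1a it was -0.17 (-0.90 to 0.57), for Ppara 0.44 (-0.29 to 1.18) and for Hadha -0.11 (-0.39 to 0.18). In inflamed transfer mice Ppargc1a differed by -0.28 (-1.09 to 0.53) and Slc27a2 by -0.06 (-0.88 to 0.76). Across the members the median distance from the estimate to an end of its interval was 0.59 in inflamed TNFΔARE mice and 0.65 in inflamed transfer mice. Whether the inhibitor acted differently in inflamed than in non-inflamed mice was tested as an interaction, with 0% of all genes called in either model and 0 members. The smallest p among members was that of Etfb in the transfer model (log2 difference 2.01 ± 0.66, unadjusted p = 0.00644) and of Acadvl, the very long chain dehydrogenase, in the TNFΔARE model (-0.34 ± 0.21, unadjusted p = 0.123). At an unadjusted p under 0.05 there were 3 members in the transfer model and 0 in the TNFΔARE model, beside 1.95% and 1.6% of all genes.

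The effect of inflammation was then compared between the models with vehicle, as TNFΔARE minus transfer in a joint fit of 15565 genes. Here 8 of the 36 members had a lower effect in the TNFΔARE model and 0 a higher one, where 2.83% of all genes were called lower and 1.63% higher. Angptl4 differed by -4.57 ± 0.96 (log2, SE, adjusted p = 0.00484), Pex11a by -1.45 ± 0.34 (adjusted p = 0.00967), Slc27a2 by -1.97 ± 0.48 (adjusted p = 0.0122) and Slc27a4 by -2.98 ± 0.83 (adjusted p = 0.0308). Creb3l3, Vnn1, Fabp1 and Acot12, a cytosolic thioesterase, were the other 4, with differences of -4.45, -5.31, -9.69 and -7.86. None of these 4 was called without the small-intestinal-type transfer library, where the differences were -1.47 for Creb3l3, -0.68 for Vnn1, -6.72 for Fabp1 and -3.29 for Acot12 (adjusted p = 0.322, 0.54, 0.259 and 0.232). Fabp1 was carried by 2 colitic vehicle libraries of the transfer model, at 95.03 CPM in replicate 1 (554 counts), which has 32330 CPM of pancreatic acinar markers, and 83.2 CPM in replicate 3 (1084 counts), and was listed at 0 in the other 4. Without replicate 3, 4 members were called, where 2.01% of all genes were: Angptl4 (-3.37, adjusted p = 0.0105), Pex11a (-1.09, adjusted p = 0.00745), Slc27a2 (-1.62, adjusted p = 0.0239) and Slc27a4 (-1.12, adjusted p = 0.0215). When the 4 libraries rich in pancreatic transcripts were left out as well, Pex11a was the 1 member called, where 1.06% of all genes were, and the Fabp1 difference was 1.25 (adjusted p = 0.78). Without non-inflamed transfer replicate 6 there were 2 calls (1.84% of all genes called in either direction). Without non-inflamed transfer replicate 7 there were 5 (6.07%), as there were without TNFΔARE vehicle replicate 1 (2.66%) or 2 (3.13%). Ppargc1a fell in both models and its difference between them did not pass. Region, host genotype and most of the batches differ together between the models and cannot be told apart here.

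The wider pathway was read from a list of 66 further PPAR and fatty acid oxidation genes, of which 65 matched. In TNFΔARE mice given vehicle, 19 of 57 tested were lower and 2 higher, with a median log2 fold change of -0.40, beside 6.94% and 8.07% of all genes. The largest called were Plin4, a lipid droplet coat (-2.21 ± 0.58, adjusted p = 0.0126), Aqp7, a glycerol channel (-1.81 ± 0.52, adjusted p = 0.0219), Fabp2, the intestinal fatty acid binding protein (-1.50 ± 0.37, adjusted p = 0.00848), Lipe, hormone-sensitive lipase (-1.16 ± 0.28, adjusted p = 0.00758), and Gpd1, which makes glycerol phosphate (-1.15 ± 0.18, adjusted p = 0.000206). Lipe is also on the adipocyte list and Fabp2 on the enterocyte list used above. With inhibitor the counts were 9 lower and 3 higher of 57, with a median of -0.48, beside 4.37% and 7.23%. In colitic transfer mice given vehicle 5 of 60 were lower and 2 higher (median 0.10), beside 5.34% and 6.95% of all genes. Those lower included Acsl3, an acyl-CoA synthetase (-1.29 ± 0.25, adjusted p = 0.00464), Acad11, a dehydrogenase of long-chain and hydroxylated acyl-CoA (-0.98 ± 0.22, adjusted p = 0.0079), and Fads2, a desaturase (-0.77 ± 0.21, adjusted p = 0.0225). Plin5 (2.24 ± 0.64, adjusted p = 0.0271) and Plin3 (1.20 ± 0.38, adjusted p = 0.0455), both lipid droplet coats, were the 2 higher ones. With inhibitor 10 of 60 were lower and 0 higher, with a median of -0.28, beside 9.71% and 12.9%.

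Genes of lipid synthesis were read as a further list. Of 15, 0 were called in either direction in TNFΔARE mice given vehicle, where 6.94% of all genes were called lower and 8.07% higher. At an unadjusted p under 0.05, 3 were lower and 1 higher, beside 13.6% and 13.1% of all genes. In colitic transfer mice given vehicle 1 was lower, Acly, which supplies cytosolic acetyl-CoA (-1.03 ± 0.25, adjusted p = 0.0142), as it was with inhibitor (-0.90 ± 0.23, adjusted p = 0.00986). Beside it 5.34% and 9.71% of all genes were called lower. In TNFΔARE mice given inhibitor 1 was lower, Mlxipl, a glucose-responsive transcription factor of lipogenesis (-1.03 ± 0.33, adjusted p = 0.0491), beside 4.37% of all genes. Of the 15 fold changes there 3 were negative, against 11 of 15 with vehicle, a difference that was not tested. Of 15 genes of mitochondrial content, 2 were lower in TNFΔARE mice with vehicle and 2 with inhibitor, beside 6.94% and 4.37% of all genes. In colitic transfer mice 1 and 5 were lower with vehicle and inhibitor, beside 5.34% and 9.71%. None of these genes was higher in those 4 comparisons.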

How the data were processed

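RNA of mouse intestine was sequenced in 44 libraries with a directional poly-A kit, per the labels' protocols. The authors deposited 2 tables per model: expected counts per gene, which are unscaled read estimates, and normalized signal. According to the submitters' processing notes the tools were Salmon 0.14.1 and DESeq2 (no version) and the builds GRCm38 and mm10. The annotation release is not given in the sources used here, and gene names came from GENCODE M21. The deposited normalized signal served 1 alternative only, as log2 of the value plus 1 in limma.

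Rounded expected counts were tested with edgeR 4.0.16 in R 4.3.3. The filter was filterByExpr and the scaling TMM. For each model, 1 robust quasi-likelihood fit over all kept genes held its 4 groups and the labelled batch. F-tests were two-sided, and p-values were adjusted by Benjamini-Hochberg over every gene tested, with a threshold of 0.05. The difference between the models came from a joint fit of all 44 libraries with batch nested in model. Since batch is in the fit, a fold change can depart from the ratio of CPM. CPM used TMM-scaled library sizes, and scores used a prior count of 2. Intervals are 95%. PCR copies were not marked by molecular identifiers and may repeat a molecule, so depth can overstate the number of molecules counted. SE and intervals come from the spread between libraries in the fit.

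The 36 members and the lists were chosen with earlier results of these data known. The text names 12 members always (Ppara, Ppard, Pparg, Ppargc1a, Creb3l3, Angptl4, Cpt1a, Pdk4, Fabp1, Cd36, Plin2 and Hadha), every member called in any of 11 comparisons, per role the member with the smallest p, and the 5 called genes with the largest change in the other pathway and lipid synthesis lists. Other genes were named after their values were seen. The fit was tested on simulated counts. Sequence words of 31 bases came from GENCODE M21 transcripts. Of the 100 pairs of libraries within a group, none agreed within sampling noise.

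Alternatives were the DESeq2 1.42.0 test, limma-voom 3.58.1, RLE scaling, no filter on low counts, leaving out the batch term, blocking on the replicate number, fitting only the 2 groups or 1 batch, the normalized signal, other prior counts for the score, each library left out in turn, and libraries that stand apart left out. Leaving out libraries with at least 1000 CPM of pancreatic acinar markers was added after the data were seen.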

Additional observations from a re-analysis of the deposited data

Results flagged for a closer look

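A library was flagged where its gap to the nearest other library of its group was large for the range of the group by Dixon's test, which chance meets in about 1 in 20 groups. Of 208 groups of values tested (25 named members and the mean score in 8 groups), 28 held such a library, 13 of them inflamed vehicle replicate 3 of the transfer model. That library had a mean score of 6.34, against 4.14 to 4.77 in the other 5. Its CPM were 28.1 for Ppara, 451 for Creb3l3, 37.2 for Angptl4, 326 for Vnn1, 64.6 for Pex11a, 1221 for Slc27a4 and 136 for Cpt2. It also had 99.8 CPM of Crat, 407 of Hadha, 154 of Ehhadh, 2.76 of Acaa1b and 18.4 of Acot12. Each of these lay above every other library of its group.

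In the other transfer groups, inflamed inhibitor replicate 5 had the highest Pdk4 at 26.8 CPM and Fabp1 at 0.257 CPM, and inflamed inhibitor replicate 3 the highest Ehhadh at 34.8 CPM and Acot12 at 0.543 CPM. Both hold pancreatic transcripts. Non-inflamed inhibitor replicate 1 had the highest Angptl4 at 15.6 CPM and Cd36 at 80.6 CPM, with 1089 CPM of adipocyte markers against 33.3 to 313 CPM in the other 5, and non-inflamed vehicle replicate 1 the highest Fabp1 at 0.256 CPM.

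In the TNFΔARE model, inflamed inhibitor replicate 6 had the highest Acaa1b at 7.25 CPM. Inflamed vehicle replicate 2 had the lowest Slc27a2 at 18.1 CPM and Cpt2 at 67.3 CPM, and replicate 3 the highest Etfb at 3.69 CPM. Among wild-type littermates, inhibitor replicate 1 had the lowest Vnn1 at 133 CPM and inhibitor replicate 4 the lowest Cpt2 at 84.1 CPM. Vehicle replicate 4 had the lowest Ppard at 74.2 CPM and the highest Pex11a at 50.4 CPM.

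The effect of inflammation differed between the models, as TNFΔARE minus transfer on the log2 scale, for 8 members by edgeR's test of the difference. The values were -4.57 for Angptl4, -1.45 for Pex11a, -1.97 for Slc27a2, -2.98 for Slc27a4, -4.45 for Creb3l3, -5.31 for Vnn1, -9.69 for Fabp1 and -7.86 for Acot12. The last 4 were not called without inflamed vehicle replicate 3 of the transfer model, at -1.47 for Creb3l3, -0.68 for Vnn1, -6.72 for Fabp1 and -3.29 for Acot12. When the libraries rich in pancreatic transcripts were left out as well, Pex11a was the 1 member called, beside 2.09% of all genes. Without the TNFΔARE libraries that hold Car1, 0 members were called, beside 0.46% of all genes.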

How the results depend on the processing

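Members called stood within 1.5 times the reported count under RLE scaling in all 11 comparisons, and other settings moved them as follows. In transfer mice given vehicle 5 were called, beside 12.3% of all genes. There were 16 with limma-voom (39.4% of all genes), 3 with no count filter (7.11%) and 8 with no batch term (20.2%). There were 0 with the 2 groups alone and in batch 4 alone (0% of all genes in each). Without libraries of at least 1000 CPM of acinar markers and inflamed vehicle replicate 3 there were 5 (8.36%). With the 1000 CPM limit and replicate 3 kept there were 0 (0.0834%). With each library left out there were 2 to 9. In transfer mice given inhibitor 7 were called, beside 22.6% of all genes. There were 12 with DESeq2 (29.8% of all genes), 24 with limma-voom (52.5%) and 20 with the 2 groups alone (32%). There were 11 in batch 1 alone (20.8%) and 16 without the 1000 CPM libraries and inflamed vehicle replicate 3 (21.4%). With the 1000 CPM limit and that replicate kept, 1 was higher and 4 were lower (14.5%). With each library left out there were 4 to 11. In TNFΔARE mice given vehicle 9 were called, beside 15% of all genes. There were 5 without libraries with Car1 (5.21% of all genes) and 5 to 10 with each library left out. In TNFΔARE mice given inhibitor 10 were called, beside 11.6% of all genes. There were 23 with no batch term (30.4% of all genes), 4 with the 2 groups alone (8.17%) and 1 without libraries with Car1 (3.62%). With each library left out there were 1 to 12. Batch 2 alone has 1 inflamed library, so its count is not given. For the model difference 8 were called, beside 4.46% of all genes. It had 5 with limma-voom (10.2% of all genes), 1 without the 1000 CPM libraries and replicate 3 (2.09%) and 0 without libraries with Car1 (0.46%). With each library left out there were 2 to 10. The 100 CPM limit left 1 non-inflamed library per treatment in the transfer model and called 0% of all genes there, so its counts of 0 say nothing about stability. The cause of the other shifts was not tested.

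A replicate block gave 10 and 17 calls in transfer mice with vehicle and inhibitor, where 38% and 38.7% of all genes were called. It gave 2 in TNFΔARE mice with inhibitor (5.73% of all genes) and 4 for the model difference (9.26%). Same-numbered libraries deviated together (correlation over 0.1) in every pair of no comparison, so the numbers are not taken as a pairing. For the inhibitor and for its interaction with inflammation, 0 members were called under each setting run, each library left out included.

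Of 413 recomputed fold changes of the 39 called member values, 278 were called in the same direction, 133 kept their direction but were not called, and 2 reversed, both in the model difference: Vnn1 at 0.69 without the 100 CPM libraries and replicate 3, a fit with 1 non-inflamed transfer vehicle library, and Fabp1 at 1.25 without the 1000 CPM libraries and replicate 3. Low levels limit Etfb, Eci1, Acaa1b, Acot12 and transfer-model Fabp1, Vnn1 and Angptl4 most.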
